A study of Oryza sativa with 12 samples.

Results

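The 10 genes described here encode glutelins, the main storage proteins of the rice grain, and they were taken by gene identifier from a table of counts that lists 38978 genes. They comprise 3 genes of subfamily GluA (Os01g0762500, Os10g0400200 and Os03g0427300), 5 of GluB (Os02g0249800, Os02g0249900, Os02g0249600, Os02g0268100 and Os02g0268300), 1 of GluC (Os02g0453600) and 1 of GluD (Os02g0249000). All 10 were present in the table. The subfamily names came with the identifiers, since neither the deposited tables nor the reference table used here pairs them with names. The study sequenced polyadenylated RNA of rice embryos to ask how loss of OsLEC1 changes gene expression in early and late embryo development. The *Oslec1-1* mutant was made with CRISPR/Cas9 in the Nipponbare background, and its frameshift leaves room for a shortened protein. It represents 1 allele of the gene. The groups were *Oslec1-1* late embryos (LE) at 25 days after pollination (DAP), wild type LE at 25 DAP, *Oslec1-1* early embryos (EE) at 7 DAP and wild type EE at 7 DAP, with 3 biological replicates each. The wild type was Nipponbare (NIP in the labels), all plants were grown in a greenhouse, and several embryos were pooled per sample. OsLEC1 itself was not checked, because no source used here ties it to a row of the count table.

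Glutelins are globulins of the legumin type. They are made as a precursor on the endoplasmic reticulum, carried through the Golgi to protein storage vacuoles and cut there into an acidic and a basic chain that a disulfide bond holds together. Glutelins are known as proteins of the starchy endosperm, the nutritive tissue beside the embryo, where transcription factors of the bZIP and DOF families bind their promoters, together with the prolamins and alpha-globulin. The embryo stores mainly globulins of another class, and oil in bodies coated by oleosins. LEC1 is the B subunit of a nuclear factor Y complex and is known, mostly from Arabidopsis, as a regulator of embryo maturation.

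Library totals lay between 16113922 and 27213238 counts, and no 2 libraries of a group held identical values. Levels of 1 gene across libraries are given below as normalized CPM, the counts of a gene relative to those of the whole library (CPM) after scaling by the trimmed mean of M values (TMM), and levels of different genes are compared as FPKM, which divides by gene length. Of 8 genes listed as embryo storage and maturation genes, all 8 had at least 10 counts in every library of each group. Of 23 genes listed as endosperm genes (12 for prolamins and alpha-globulin and 11 for starch enzymes), none was at 0 in all 3 libraries of any group. The library codes in the labels differ between the EE and LE samples, so that stage and sequencing run cannot be told apart.

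In the coordinates of the deposited tables (IRGSP-1.0), 7 of the 10 genes lay on chromosome 2, and the 3 GluA genes lay on chromosome 1 (32076744 to 32078652, plus strand), chromosome 3 (17864282 to 17866204, plus strand) and chromosome 10 (13497363 to 13499401, minus strand). Os02g0249000, Os02g0249600, Os02g0249800 and Os02g0249900 stood within 60327 bases of chromosome 2 (8406709 to 8467035), a stretch that holds 5 other listed genes. Os02g0268100 and Os02g0268300 stood within 7513 bases (9580486 to 9587998) with no other listed gene, on opposite strands. The GluC gene Os02g0453600 lay alone on the minus strand (14991687 to 14993674). The genes span between 1909 and 2039 bases.

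The counts of 4 GluB genes are uncertain. CPM divided by FPKM should come near the length of a gene in kilobases, and the 6 EE libraries gave mean ratios between 1.89 and 2.30 for the other 6 glutelin genes. The ratio was 0.0409 for Os02g0249800 and 0.0368 for Os02g0249900, a divergently placed pair of 1970 bases each, 0.78 for Os02g0268100 and 0.49 for Os02g0268300. The count table therefore held far fewer reads for these 4 genes than the FPKM values imply. In wild type EE, Os02g0249800 had 67, 73 and 77 counts and Os02g0249600, of similar span, had 3797, 3886 and 3941, although the FPKM of Os02g0249800 (127, 147 and 149) was above that of Os02g0249600 (103, 128 and 117). FPKM of Os02g0249800 and Os02g0249900 was nearly equal in every EE library. How the 2 programs treated reads that match more than 1 gene is not given in the sources used here, and its part in the low counts was not tested.

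**Figure D1:**
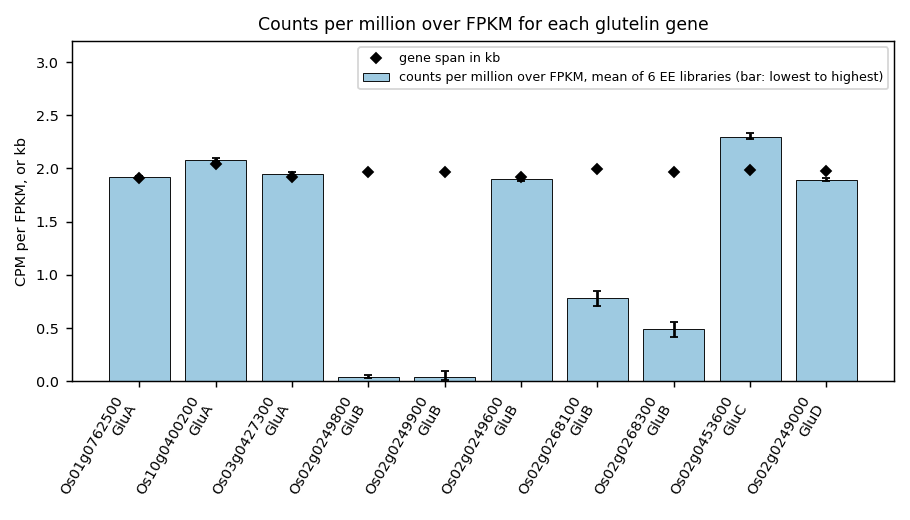
CPM over FPKM for the 10 glutelin genes, as the mean of the 6 EE libraries (columns) with the lowest and highest library (bars), beside the gene span in kilobases (diamonds). The columns reach the diamonds for 6 genes and stay far below for Os02g0249800, Os02g0249900, Os02g0268100 and Os02g0268300.

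At EE all 10 glutelin genes rose in *Oslec1-1* embryos. The summed level was 39958, 39602 and 37930 normalized CPM in the 3 *Oslec1-1* EE libraries, against 4449, 5517 and 4529 in wild type EE. Every mutant library stood above every wild type library, by 8.11-fold between the means of 39163 ± 1083 and 4831 ± 595 (SD, n = 3 each). As a share of all counts, the 10 genes took 4.50% ± 0.166 in *Oslec1-1* EE and 0.348% ± 0.0474 in wild type EE (SD, n = 3 each). Sums and shares of counts, here and below, include the GluB genes whose counts were below what FPKM implies. They may therefore be too low. All 10 genes were called higher in edgeR's quasi-likelihood test on the 6 EE libraries, at a Benjamini-Hochberg adjusted p under 0.05 over all genes tested and a log2 fold change of at least 2, where 10.9% of the 23034 genes tested were called higher. The median log2 fold change of the 10 genes was 3.24, against 0.03 over all genes tested. In all 10 genes the lowest *Oslec1-1* EE library was above the highest wild type EE library, as it was in 34.3% of all genes tested. In bulk RNA of whole embryos, more cells of 1 type and more RNA per cell cannot be told apart.

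The GluA genes, which encode one of the major glutelin types, include the 2 most abundant of the 10. Os01g0762500 had 13115, 12419 and 12486 normalized CPM in *Oslec1-1* EE, against 1595, 1962 and 1572 in wild type EE. The groups did not overlap, and the log2 fold change was 2.89 ± 0.17 (SE; edgeR adjusted p = 4.72e-07). Os10g0400200 reached between 8377 and 9076 normalized CPM in *Oslec1-1* EE, against 962 to 1280 in wild type EE, with a log2 fold change of 3.0 ± 0.17 (SE). Os03g0427300 reached between 4621 and 5040 normalized CPM in *Oslec1-1* EE, against 552 to 624 in wild type EE, with a log2 fold change of 3.05 ± 0.14 (SE). These 3 fold changes differed by no more than about 1 standard error.

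The log2 fold changes of the GluB genes, the other major type, spread more widely in counts. This came mainly from the pair Os02g0249800 and Os02g0249900, whose counts are uncertain. Os02g0249600 had 3105, 3140 and 3035 normalized CPM in *Oslec1-1* EE, against 261, 332 and 321 in wild type EE. The log2 fold change of this gene, whose counts and FPKM correspond, was 3.34 ± 0.14 (SE; edgeR adjusted p = 6.99e-08). Os02g0268100 and Os02g0268300 rose by log2 fold changes of 3.13 ± 0.12 and 3.41 ± 0.11 (SE). The 2 largest values of the 10 were those of the pair with few counts, at 4.19 ± 0.14 (SE) for Os02g0249800 and 5.03 ± 0.53 (SE; edgeR adjusted p = 3.01e-05) for Os02g0249900. Os02g0249900 had 962, 2150 and 3885 counts in *Oslec1-1* EE, against 33, 46 and 47 counts in wild type EE. It was the only one of the 10 genes whose *Oslec1-1* EE libraries lay more than 1.27-fold apart in normalized CPM, at 4.35-fold between the highest and the lowest. In FPKM the same gene stood at 2427, 2067 and 2218 in *Oslec1-1* EE and at 127, 147 and 148 in wild type EE, and limma on log2(FPKM + 1) gave log2 differences of 3.98 for both genes of the pair. The 2 scales are unlike, because FPKM lacks TMM. The median log2 fold change over all genes tested at EE was 0.03 in edgeR and 0.55 in this limma fit. Both genes of the pair had larger values in counts (4.19 and 5.03) than in FPKM, although the FPKM scale raised the median gene.

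The single GluC gene, Os02g0453600, reached between 5433 and 6882 normalized CPM in *Oslec1-1* EE, against 671 to 932 in wild type EE. Its log2 fold change was 2.95 ± 0.18 (SE). The single GluD gene, Os02g0249000, was the least abundant of the 10 per length, with FPKM of 323 ± 24.0 in *Oslec1-1* EE and 13.8 ± 3.03 in wild type EE (SD, n = 3 each). In normalized CPM it stood at 533 ± 29.3 in *Oslec1-1* EE and 36.3 ± 8.77 in wild type EE (SD, n = 3 each). Its log2 fold change of 3.88 ± 0.18 (SE; edgeR adjusted p = 1.25e-07) was the largest among the 6 genes whose counts and FPKM correspond.

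**Figure D2:**
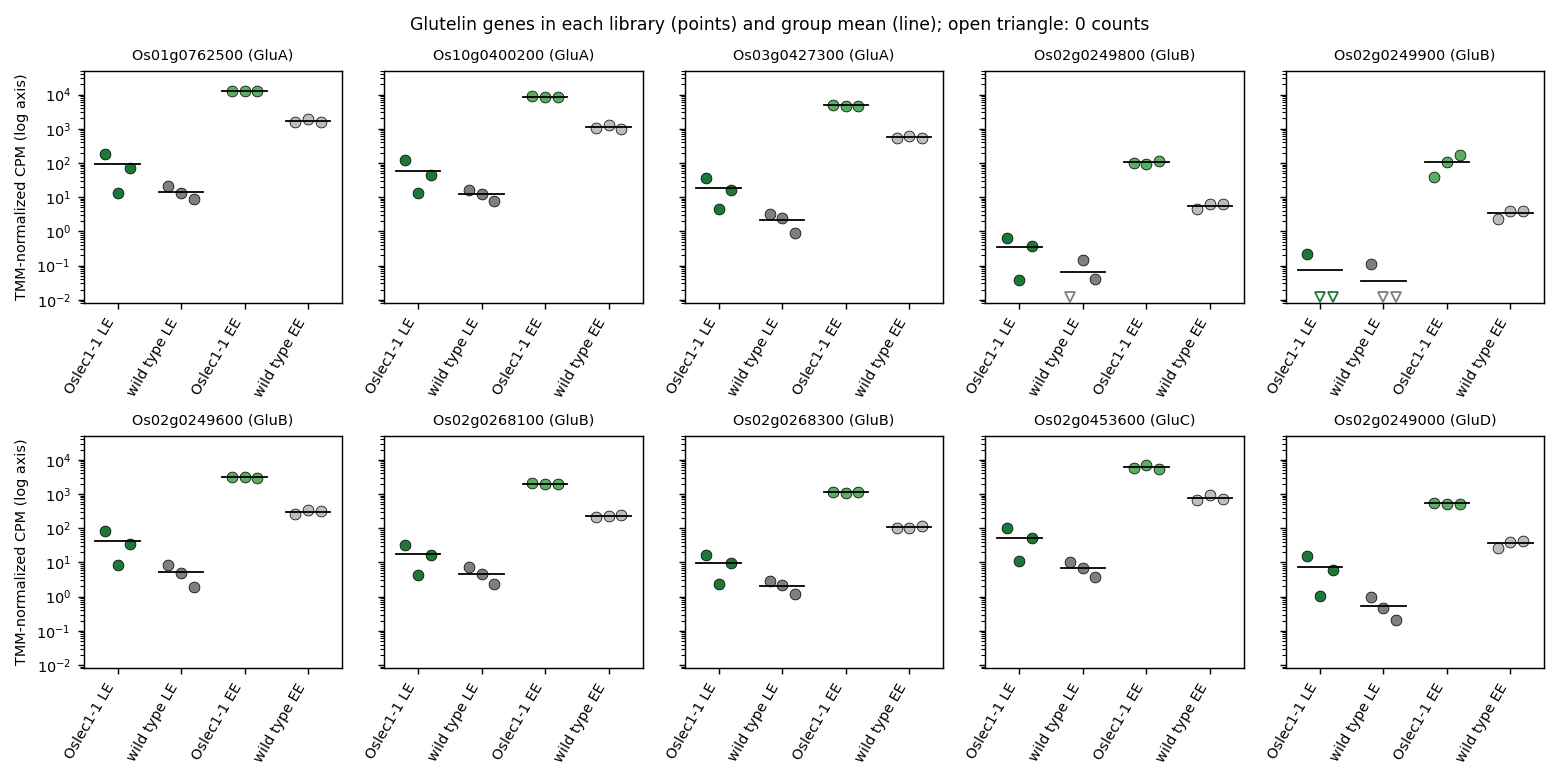
Normalized CPM (log axis) of each glutelin gene in each library (points) with the mean of each group (line), and an open triangle for a library with 0 counts. At EE the *Oslec1-1* points lie above the wild type points in all 10 panels, while at LE the *Oslec1-1* points are spread widely and overlap the wild type points in 7 panels.

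Part of the difference in FPKM at EE is shared by all genes. Without TMM, on library size alone, the median log2 fold change of all genes tested at EE moved to 0.70, and the log2 difference of the summed glutelin level moved from 3.03 to 3.70. In summed FPKM, the glutelins stood at 30363 ± 1063 in *Oslec1-1* EE and 2263 ± 262 in wild type EE (SD, n = 3 each). All 10 genes stayed called higher on that scale as well.

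At LE the glutelin transcripts were scarce in both genotypes, and they were higher in *Oslec1-1* embryos with a wide spread between replicates. The summed level was 594, 58.2 and 249 normalized CPM in the *Oslec1-1* LE libraries, against 71.2, 46.8 and 27.4 in wild type LE. Replicate 1 of *Oslec1-1* LE was the highest library and replicate 2 lay among the wild type libraries. Of the 10 genes, 8 passed the filter on low counts at LE, and 7 of those 8 were called higher by edgeR, where 8.29% of the 24065 genes tested were called higher. The median log2 fold change of the 8 genes was 2.84, against 0.02 over all genes tested. The adjusted p of the 7 called genes lay between 0.0127 and 0.0334. Only 3 of the 10 genes, Os03g0427300, Os02g0453600 and Os02g0249000, had all *Oslec1-1* LE libraries above all wild type LE libraries, a share close to the 30.7% of all genes tested. The number of calls changed when single libraries were left out: without *Oslec1-1* LE replicate 1, 3 genes were called higher, and without wild type LE replicate 2, 1 gene. Without wild type LE replicate 3 or *Oslec1-1* LE replicate 3, 4 genes were called, and without *Oslec1-1* LE replicate 2, 9. The log2 difference of the summed level, 2.19 with all libraries, was 1.42 without *Oslec1-1* LE replicate 1. Without wild type LE replicate 2 it was 2.21, so that the calls were lost there with little change in the summed difference.

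Among the GluA genes at LE, Os01g0762500 had 187.5, 13.5 and 70.7 normalized CPM in *Oslec1-1* LE, against 21.1, 13.4 and 9.13 in wild type LE. The groups overlapped, and the log2 fold change was 2.68 ± 0.84 (SE; edgeR adjusted p = 0.0332). Os03g0427300 had 36.1, 4.60 and 16.6 normalized CPM in *Oslec1-1* LE, against 3.24, 2.40 and 0.897 in wild type LE. With no overlap, its log2 fold change was 3.19 ± 0.77 (SE; edgeR adjusted p = 0.0127). Os10g0400200 was called at a log2 fold change of 2.33 ± 0.73 (SE), although its lowest *Oslec1-1* LE library (13.2 normalized CPM) was below the highest wild type LE library (16.6).

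Among the GluB genes at LE, Os02g0268100 was the 1 tested glutelin gene that was not called. It had 32.0, 4.37 and 16.1 normalized CPM in *Oslec1-1* LE, against 7.24, 4.51 and 2.36 in wild type LE, with a log2 fold change of 1.95 ± 0.70 (SE; edgeR adjusted p = 0.0523). Both this fold change and its p lay just outside the limits. Its neighbour Os02g0268300 was called at 2.22 ± 0.67 (SE), and Os02g0249600 at 3.14 ± 0.86 (SE). Os02g0249800 had 20, 1 and 10 counts in *Oslec1-1* LE, against 0, 4 and 1 in wild type LE, and Os02g0249900 had 7, 0 and 0 counts in *Oslec1-1* LE, against 2, 0 and 0 in wild type LE. A count of 0 allows up to 3 counts, so that no difference of Os02g0249900 was detectable at this depth in the count table. In the deposited FPKM, whose values for this gene do not follow from these few counts, Os02g0249800 stood at 34.3, 2.42 and 13.5 in *Oslec1-1* LE, against 2.02, 1.29 and 0.581 in wild type LE.

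The GluC gene Os02g0453600 had 98.7, 10.8 and 51.0 normalized CPM in *Oslec1-1* LE, against 10.4, 6.80 and 3.75 in wild type LE, a log2 fold change of 2.99 ± 0.76 (SE; edgeR adjusted p = 0.0154). The GluD gene Os02g0249000 had the largest log2 fold change among the 8 glutelin genes tested at LE, 3.86 ± 1.00 (SE; edgeR adjusted p = 0.0164). The value of the GluC gene lay within this standard error. Levels of the GluD gene were 15.2, 1.04 and 6.16 normalized CPM in *Oslec1-1* LE, against 0.972, 0.481 and 0.204 in wild type LE. In both genes the lowest mutant library lay barely above the highest wild type library.

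The spread at LE was shared by the glutelin genes. For the 8 genes with enough counts, the highest *Oslec1-1* LE library was between 7.09 and 14.7 times the lowest, and the highest wild type LE library between 2.09 and 4.77 times the lowest. In *Oslec1-1* LE replicate 1 was the highest and replicate 2 the lowest for all 8, and in wild type LE replicate 1 was the highest and replicate 3 the lowest for all 8. At EE the corresponding ratios lay between 1.03 and 1.27 in *Oslec1-1*, apart from Os02g0249900, and between 1.13 and 1.73 in the wild type. The replicates at LE therefore differed in a quantity common to the glutelin genes, more than in single genes.

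**Figure D3:**
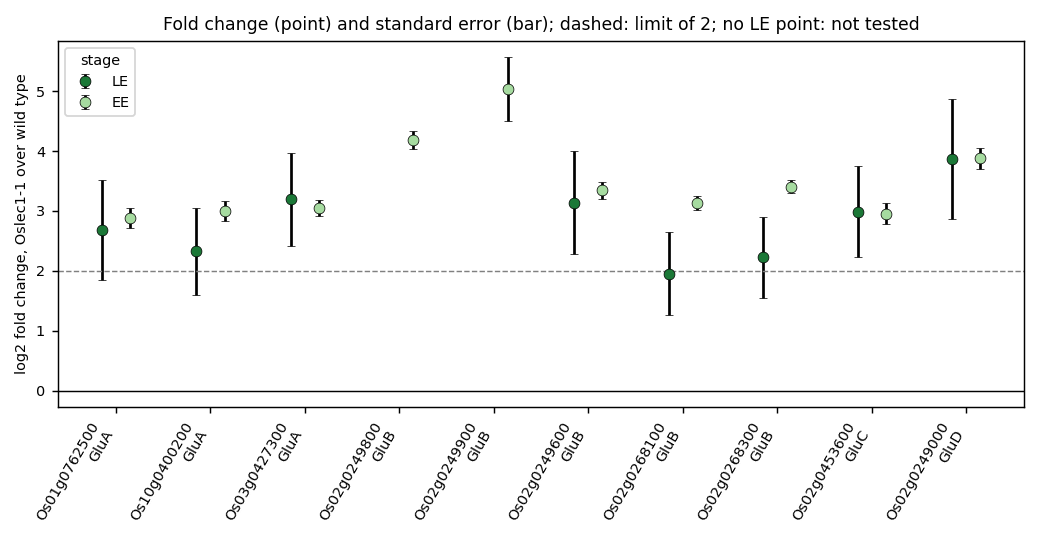
Log2 fold change of *Oslec1-1* over wild type from edgeR for each glutelin gene at LE (dark points) and EE (light points), with bars of 1 standard error and the limit of 2 dashed. At EE all 10 points lie above the limit, while at LE the bars are several times longer and Os02g0268100 lies just under it.

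Whether the genotype difference of a glutelin gene depended on stage was tested as an interaction over all 12 libraries. None of the 10 genes passed an adjusted p under 0.05 in edgeR, none had an unadjusted p under 0.05, and the lowest adjusted p was 0.19, where 33.4% of the 24903 genes tested passed. DESeq2 also called 0, with 2 at an unadjusted p under 0.05. Standard errors of the interaction were at least 0.67 on the log2 scale, so that a moderate difference between the stages could not be seen. The absence of a call was not robust to every choice. With library size alone edgeR gave 1 call (Os02g0268300, adjusted p = 0.0442), where 12728 of 24903 genes tested passed. Limma on log2(FPKM + 1) gave 1 (Os02g0249000, adjusted p = 0.00545), where 14219 of 26487 passed. Without *Oslec1-1* LE replicate 1 edgeR gave 3, where 7724 of 25297 passed. None of these counts stood above the share over all genes. All these calls had the smaller genotype difference at LE. The median interaction of all genes tested was also below 0, at -0.59 with library size alone and -0.41 in limma.

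All 10 glutelin genes were lower at LE than at EE in both genotypes. In *Oslec1-1* embryos the summed level was 300.5 ± 271 normalized CPM at LE and 39163 ± 1083 at EE (SD, n = 3 each), and EE stood 130-fold above LE, or 255-fold without *Oslec1-1* LE replicate 1. All 10 genes were called lower at LE in the mutant by edgeR, with a median log2 fold change of -7.02 and a range of -10.25 to -6.14, where 4.86% of all genes tested were called lower. In wild type embryos the summed level was 48.5 ± 21.9 normalized CPM at LE and 4831 ± 595 at EE (SD, n = 3 each), a 99.6-fold difference. All 10 genes were called lower at LE in the wild type too, with a median of -6.34 and a range of -8.07 to -5.61, where 6.56% were called lower. Without TMM the median of all genes in the wild type comparison moved to 0.60, which is small beside these values. Os03g0427300 had the largest decrease in the wild type, at -8.07 ± 0.69 (SE), and the value of -10.25 ± 0.77 (SE) in the mutant belonged to Os02g0249900, which had few counts at LE. As a share of all counts the 10 genes took 0.0347% ± 0.0313 in *Oslec1-1* LE and 0.00509% ± 0.00225 in wild type LE (SD, n = 3 each).

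Ranked by mean FPKM among all 38978 genes, the glutelins were among the most abundant transcripts only in *Oslec1-1* EE. There Os01g0762500 ranked 3 at 7573 ± 478 FPKM and Os10g0400200 ranked 10 at 4817 ± 275 FPKM (SD, n = 3), and 9 of the 10 genes stood within the first 50. In wild type EE the same 2 genes ranked 103 and 181, at 642 ± 93.8 and 378 ± 65.7 FPKM. At LE the best rank was 2092 in *Oslec1-1* and 11616 in the wild type, both held by Os01g0762500.

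The order of the genes by FPKM was similar in both genotypes at EE. In *Oslec1-1* EE, Os01g0762500 and Os10g0400200 were followed by Os02g0453600 (2969 ± 250), Os02g0268100 (2968 ± 89.8), Os03g0427300 (2817 ± 225), Os02g0268300 (2558 ± 130), Os02g0249800 (2250 ± 200), Os02g0249900 (2238 ± 180.5) and Os02g0249600 (1850 ± 59.3), and Os02g0249000 was last (323 ± 24.0). From Os02g0453600 to Os02g0249900 each neighbour overlapped the next one in the range of its 3 libraries, whereas the first and second genes and the last 2 were set apart from their neighbours. In wild type EE the order differed in that Os03g0427300 (214 ± 19.3) stood just above Os02g0268100 (207 ± 17.2), and these 2 overlapped. At LE the libraries of a group were too far apart to separate neighbours by level.

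A factor common to all glutelin genes of a library cancels out of their shares in that library. Os03g0427300 made up 5.20% ± 1.02 of the summed glutelin FPKM in *Oslec1-1* LE and 9.27% ± 0.429 in *Oslec1-1* EE, and 3.72% ± 0.851 in wild type LE and 9.46% ± 0.42 in wild type EE (SD, n = 3 each). Os02g0249600 went the other way, with 11.02% ± 0.678 in *Oslec1-1* LE and 6.09% ± 0.0528 in *Oslec1-1* EE, and 8.71% ± 2.14 in wild type LE and 5.14% ± 0.394 in wild type EE. In both genes and both genotypes the LE libraries did not overlap the EE libraries. These shares add to 100% in each library, so that one gene's share cannot move without the others, and they were given no test.

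Between the genotypes, the shares of GluB and GluD were larger and that of GluA smaller in *Oslec1-1* embryos. Like those above, these shares rest on FPKM, which for most GluB genes was above what their counts imply, and they carry that uncertainty. GluA made up 39.8% ± 1.46 of the summed FPKM in *Oslec1-1* LE and 49.5% ± 4.17 in wild type LE, and 50.1% ± 1.47 in *Oslec1-1* EE and 54.4% ± 2.71 in wild type EE (SD, n = 3 each). GluB made up 46.6% ± 0.598 in *Oslec1-1* LE and 38.9% ± 3.79 in wild type LE, and 39.1% ± 0.657 in *Oslec1-1* EE and 34.2% ± 3.03 in wild type EE. GluC stayed between 9.14% and 12.8% in all 12 libraries and overlapped between the genotypes at both stages. GluD made up 1.77% ± 0.256 in *Oslec1-1* LE and 0.929% ± 0.241 in wild type LE, and 1.06% ± 0.042 in *Oslec1-1* EE and 0.609% ± 0.126 in wild type EE. The genotypes did not overlap in GluB and GluD at either stage, while for GluA they did not overlap at LE and met at EE, where the highest *Oslec1-1* library had 51.4% and the lowest wild type library 51.3%.

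**Figure D4:**
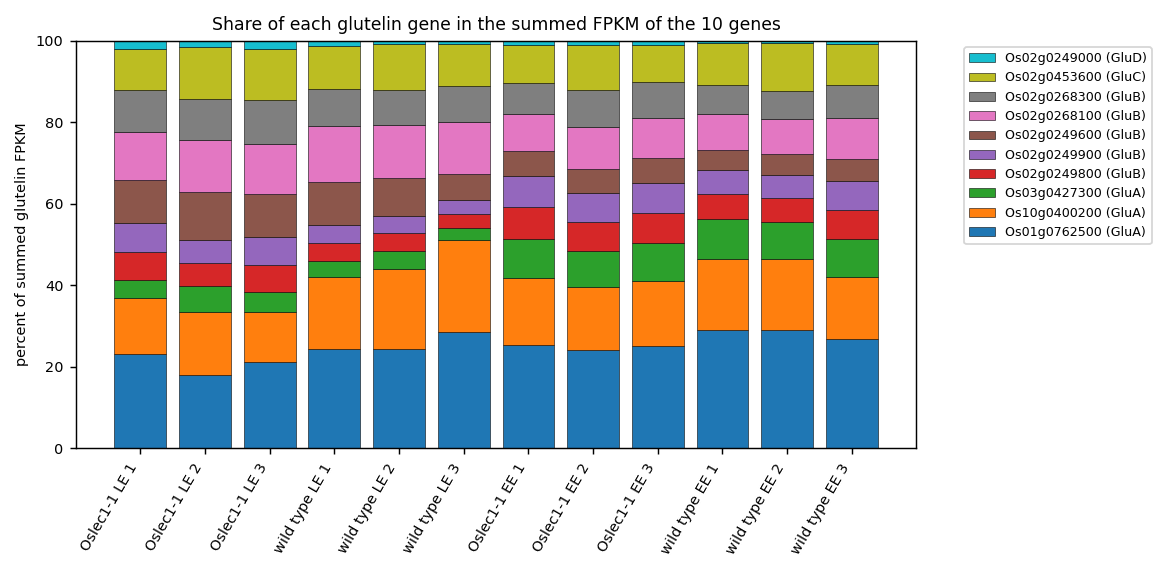
Share of each glutelin gene in the summed FPKM of the 10 genes, for each of the 12 libraries. The GluA genes (the 3 lowest layers) hold a smaller part in the *Oslec1-1* LE libraries than in wild type LE, and Os03g0427300 (green) is wider at EE than at LE in both genotypes.

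Across the 12 libraries the 10 genes moved nearly as 1. Over the 45 pairs of genes, Pearson's r of log2(normalized CPM + 1) lay between 0.892 and 0.999, with a median of 0.991. These coefficients describe 12 points that fall into 4 groups and share depth and scaling. By the same measure, the genes most like the summed glutelin level among 14980 compared were Os07g0215500 (r = 0.999), Os05g0499100 (0.996), Os07g0213800 (0.995), Os07g0206500 (0.995) and Os11g0535525 (0.995). Os05g0499100 and Os07g0206500 are on the list of genes for prolamins and alpha-globulin. Os07g0215500 and Os07g0213800 are annotated with serine-type endopeptidase inhibitor activity in the study's enrichment table, and for Os11g0535525 no annotation was found in the sources used here. Os07g0215500 stood at 24.5, 2.42 and 11.7 normalized CPM in *Oslec1-1* LE, against 3.08, 1.48 and 0.815 in wild type LE. Its replicates had the same order as those of the glutelins. The gene was picked by its likeness over these same libraries, so that this order is no separate observation.

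Among the 5 genes that lie between the glutelin genes of the first cluster, Os02g0249500 (chromosome 2, 8433458 to 8436694) was called higher at EE. It had 27.8, 9.80 and 19.6 normalized CPM in *Oslec1-1* EE, against 0.343, 0.427 and 0.815 in wild type EE, a log2 fold change of 5.18 ± 0.49 (SE; edgeR adjusted p = 1.38e-05), and at most 1 count in any LE library. Os02g0249700, between Os02g0249600 and Os02g0249800, was tested at both stages and called at neither, with log2 fold changes of -0.20 at LE and -0.99 at EE. At EE it was lower by adjusted p alone (edgeR adjusted p = 0.00415) and missed only the fold limit. The other 3 genes had too few counts to be tested. These 5 genes were chosen by position.

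The other lists of genes bear on where glutelin transcripts are usually found and how the protein is handled. All identifiers were assigned to the lists from general knowledge. The study's enrichment table names, among genes it had selected as changed, those annotated with nutrient reservoir activity, and the shortened copy used here holds 30 of them. It includes all 10 glutelin genes, 8 of the 12 genes for prolamins and alpha-globulin and 3 of 4 further glutelin genes. A gene missing from it may still carry the annotation. The 12 genes listed for prolamins and alpha-globulin, the storage proteins that endosperm makes beside glutelin, all rose at EE, where 10.9% of all genes tested were called higher, and the median of their log2 fold changes was 3.10. At LE 10 of them were tested and 5 were called higher, with a median of 1.93, where 8.29% of all genes tested were called higher. Their summed level followed that of the glutelins through the replicates, with 481, 65.6 and 247 normalized CPM in *Oslec1-1* LE, against 132, 85.0 and 48.3 in wild type LE. The ratio of the glutelin sum to this sum was 1.24, 0.887 and 1.01 in *Oslec1-1* LE, against 0.538, 0.551 and 0.567 in wild type LE. At EE it was 2.33, 2.52 and 2.41 in *Oslec1-1*, against 1.73, 1.97 and 2.25 in the wild type. In FPKM the ratio was lower in value but gave the same order of groups. The ratio was thus higher in every mutant library than in any wild type library of the same stage, and lower at LE than at EE, so that the 2 groups of storage protein genes did not move in 1 fixed proportion.

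The 11 genes listed for starch enzymes of the endosperm moved less. At EE 3 of 11 rose, against 10.9% of all genes tested, and by adjusted p alone 9 were higher and 1 lower. Their summed level was 2911, 3043 and 2512 normalized CPM in *Oslec1-1*, against 1426, 1524 and 1451 in the wild type. At LE 1 of the 10 tested was called higher, against 8.29% of all genes tested, and by adjusted p alone 4 were higher and 4 lower. The sum was 1063, 1018 and 1030 normalized CPM in *Oslec1-1* LE, against 769, 802 and 780.0 in the wild type. Os03g0758100 alone had between 343 and 368 normalized CPM in *Oslec1-1* LE, against 80.0 to 89.9 in wild type LE. The higher sum therefore does not describe the list as a whole. The highest levels of this list in *Oslec1-1* LE were those of Os03g0758100 and Os06g0160700 (260 to 271 normalized CPM), so that the sums mainly reflect these genes. The starch sums of the 3 *Oslec1-1* LE libraries lay close together, while their glutelin sums were 594, 58.2 and 249. Os06g0133000 of this list differed from its sum in this respect. It had 1.78, 0.307 and 1.14 normalized CPM in *Oslec1-1* LE, in the order of the glutelin sums, against 0.0540, 0 and 0.204 in wild type LE, where it was too low to be tested. It rose at EE with a log2 fold change of 3.04 ± 0.20 (SE), and its r with the glutelin sum was 0.983. Starch enzyme genes are also used in other tissues. The part that endosperm tissue in the samples may have in the glutelin levels was not tested.

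Of 7 genes listed as transcription factors that act on storage protein genes in endosperm, 5 rose and 1 fell at EE, where 10.9% of all genes tested were called higher and 3.92% lower. Their summed level was 588 ± 73.3 normalized CPM in *Oslec1-1* and 101 ± 10.96 in the wild type (SD, n = 3 each). At LE 4 were tested and 2 called higher, where 8.29% of all genes tested were called higher, with sums of 26.5, 31.8 and 32.4 normalized CPM in *Oslec1-1*, against 13.1, 10.1 and 14.0 in the wild type. The single factors did not all share the order of this sum, and Os07g0182000, Os01g0104500 and Os01g0393100 were highest in *Oslec1-1* LE replicate 1 among the 3 mutant LE libraries, each at under 1 normalized CPM. None of 11 genes listed for folding, transport and cleavage of the glutelin precursor was called at either stage. By adjusted p alone, 3 were higher and 4 lower at EE and 1 was higher and 1 lower at LE, and the log2 fold changes lay between -1.07 and 1.02 at EE and between -0.26 and 0.44 at LE. The genes that handle the precursor therefore did not change by the limit used where the precursor genes did.

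The 8 genes listed for embryo storage and maturation went the opposite way at EE. All 8 fell in *Oslec1-1* embryos, with a median log2 fold change of -4.57, where 3.92% of all genes tested were called lower, and their summed level was 3132 ± 407 normalized CPM in *Oslec1-1* and 74992 ± 4144 in the wild type (SD, n = 3 each). In FPKM, the glutelin sum exceeded that of the embryo list in the 3 *Oslec1-1* EE libraries and was below it in the 3 wild type EE libraries. At LE 1 of the 8 was called lower, where 1.24% of all genes tested were called lower. By adjusted p alone 6 were lower and 1 higher, and the median log2 fold change was -1.28. The sums at LE were 7077 ± 1219 normalized CPM in *Oslec1-1* and 8608 ± 42.0 in the wild type. Os11g0454300 alone had between 2408 and 3368 normalized CPM in *Oslec1-1* LE, against 1062 to 1334 in wild type LE. The close sums therefore do not describe the list as a whole.

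**Figure D5:**
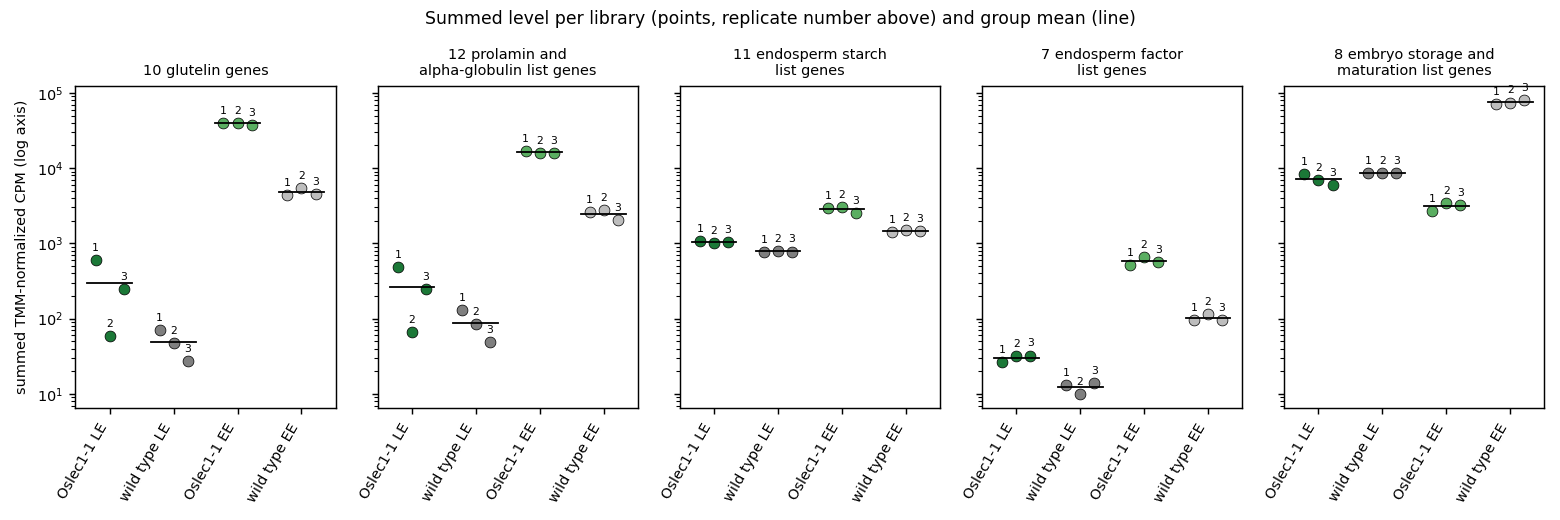
Summed normalized CPM (log axis) per library (points, with the replicate number above) and group mean (line) for the 10 glutelin genes and 4 other lists. The glutelin and the prolamin and alpha-globulin panels share the spread of the *Oslec1-1* LE replicates, the summed starch level does not, and the embryo panel is lowest in *Oslec1-1* EE.

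Of 4 further genes listed as glutelin or glutelin-like, 3 followed the 10 genes at EE. Os02g0242600, Os02g0248800 and Os02g0456100 rose by log2 fold changes of 4.26 ± 0.26, 2.98 ± 0.20 and 2.16 ± 0.40 (SE). Os08g0127900 did not. It had 1432, 2046 and 1154 normalized CPM in *Oslec1-1* EE, against 70049, 79057 and 82247 in wild type EE, and fell, with a log2 fold change of -5.65 ± 0.30 (SE; edgeR adjusted p = 2.81e-07). It was listed from general knowledge, without an annotation in the sources used here, and its pattern across the groups had an r of 0.362 with the glutelin sum over the 12 libraries.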

How the data were processed

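The 12 libraries, 4 groups of 3, hold polyadenylated RNA of rice embryos. Per the labels and the study's methods, the authors trimmed reads with Trimmomatic 0.36, mapped them with HISAT2 2.1.0 to IRGSP-1.0 and ran StringTie 1.3.4d. The deposited counts are whole reads per gene without normalization, and the counting program is not given in the sources used here. The deposited FPKM and TPM values are scaled by the authors to gene length and depth. Read coverage was not used.

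Samples were grouped by title. Counts were tested in R 4.3.3 with edgeR 4.0.16 (filterByExpr, TMM, quasi-likelihood test), per stage for genotype and over all 12 libraries for stage and interaction. A call needed a Benjamini-Hochberg adjusted p under 0.05 over all genes tested and a log2 fold change of 2 or more in either direction (no fold limit for the interaction). Standard errors were derived from the F statistic. Levels across libraries are CPM after TMM over 12 libraries. Genes alike in pattern were the 5 with the highest Pearson's r among genes with a group mean of at least 10. All 10 glutelin genes are named, with 7 further lists given as counts. The 2 genes of the embryo meristem list gave no genotype call among the 1 tested. The members and lists were chosen with earlier results of these data known. Alternatives used DESeq2 1.42.0, RLE factors, library size, other filters, limma 3.58.1 on log2(FPKM + 1 or 0.1), the replicate block and each replicate left out. The tests were checked on simulated data with the same dispersion for every gene and no factor shared by the genes of a library. That check does not cover the shared spread of the glutelins at LE. Promoter and protein sequences were not analysed here. Figures were made with Python 3.11.15 and matplotlib 3.10.9.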

Additional observations from a re-analysis of the deposited data

Results flagged for a closer look

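The effect of *Oslec1-1* was compared between the stages by the interaction test of edgeR over all 12 libraries, which 33.4% of all genes tested passed. Single genes were followed up only for the 10 glutelin genes, the 4 further glutelin genes and the 7 endosperm factors, and 2 of these passed. The effect on Os08g0127900, listed as glutelin or glutelin-like, was higher at LE than at EE by 7.51 on the log2 scale: its log2 fold change was 1.90 ± 0.22 (SE) at LE, short of the limit for a call, and -5.65 ± 0.30 (SE) at EE. The effect on Os02g0725900, listed among the factors acting on storage protein genes, was higher at LE by 3.63, with log2 fold changes of 1.49 ± 0.29 (SE) at LE and -2.16 ± 0.35 (SE) at EE. None of the 10 glutelin genes passed. Of the other lists, 0 of 12 genes for prolamins and alpha-globulin, 9 of 11 starch enzyme genes, 8 of 11 genes for folding, transport and cleavage, all 8 embryo storage and maturation genes and the 1 tested embryo meristem gene passed. Groups of 3 were too small to be searched for outlying libraries.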

How the results depend on the processing

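At EE the 10 glutelin genes stayed called higher in every alternative run (9 where the pair Os02g0249800 and Os02g0249900 was summed as 1 gene), and all 10 stayed lower at LE than at EE in both genotypes, with any replicate left out. At LE the number called higher was 1 with limma on log2(FPKM + 1) over all genes, between 5 and 8 in the other alternatives and between 1 and 9 with 1 replicate left out, against 7. The interaction gave 1 gene with library size only, 1 with limma on log2(FPKM + 1) and 1 with the same over all genes, and between 0 and 3 with 1 replicate left out, against 0. The 3 came without *Oslec1-1* LE replicate 1, where 7724 of 25297 genes tested passed. The cause of these changes was not tested. The log2 difference of the summed level at EE, 3.03, was 3.70 in unscaled CPM, 3.75 in FPKM and 3.71 in TPM, scales that lack TMM. Over all genes, library size only moved the share of higher calls from 73.6% to 87.4% at EE, from 55.5% to 74.8% for LE against EE in the wild type and from 49.9% to 14.8% in the interaction. Requiring 10 counts in every library reduced the calls over all genes from 3417 to 1354 at EE (54.8% higher) and from 2293 to 867 at LE, and limma on log2(FPKM + 1) to 1939 and 920. For the stage comparisons these 2 settings gave 962 and 1353 calls in *Oslec1-1*, against 2828, and 1294 and 1339 in the wild type, against 3669. Library size only and limma on log2(FPKM + 1) raised the interaction calls from 8321 to 12728 and 14219. Same-numbered replicates had correlated deviations of -0.04 to 0.06 at EE and of 0.33, -0.01 and 0.17 at LE, so that 2 of 3 pairs passed 0.1 at LE and none at EE, and the numbers were not taken as pairing. With the replicate block 10 glutelin genes were called at EE and 5 at LE.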
